A study of Oryza sativa with 3 samples.

Results

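The microRNA probes of the rice families miR171, miR159 and miR319 were compared between roots of seedlings exposed to 1 mM vanadium and roots of seedlings exposed to water. They were taken from the array by name: every probe whose name begins with osa-miR171, osa-miR159 or osa-miR319 followed by a letter. This gave 51 of 510 microRNA probes and of 42477 probes in all, for 17 microRNA names: 9 of miR171 (a to i), 6 of miR159 (a to f) and 2 of miR319 (a and b). Each name has 3 kinds of probe, called Mature, 5'seq and 3'seq, and each probe has 2 spots per array. The sources used here do not say which stretch or strand of the microRNA gene the 5'seq and 3'seq probes read, or whether a Mature probe reads the mature RNA or its precursor. Probe and mature sequences were not used here.

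MicroRNA genes are transcribed by RNA polymerase II into long primary transcripts, which a Dicer-like enzyme cuts through a hairpin precursor to the short mature RNA. In plants, miR171 directs cleavage of mRNAs of GRAS transcription factors of the HAIRY MERISTEM type, which act in meristem maintenance. miR159 directs cleavage of mRNAs of GAMYB factors, which act in gibberellin signalling and anther development. Its close relative in sequence, miR319, targets TCP factors that restrain cell division in leaves. Mature RNAs are identical among several members of each family, such as b to f of miR171, while the rest of the precursor differs more. A signal at a Mature probe may therefore not belong to 1 gene.

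All seedlings were 6 days old and of cultivar TN-67, and no transgene or mutation is given. Each of 3 arrays held both RNAs of 1 biological replicate, vanadium in Cy5 and water in Cy3. The dyes were never swapped, so a probe-specific dye effect and the effect of vanadium cannot be told apart. Replicates 2 and 3 were hybridised on the same slide, and replicate 1 on a separate one. In bulk roots, fewer cells of a type and less RNA per cell cannot be told apart either. Between 68.2% and 75.2% of non-control spots were well above background per channel and array. Both loci listed as root markers, for silicon transport, were detected, with mean log2 ratios of vanadium over water of -2.06 and -1.02. Both were called lower under vanadium (limma, adjusted p = 0.000370 and 0.00661). Of 9 loci listed as markers of green shoot, 4 could be tested, at -0.92 to 0.63, and 1 was higher, at 0.29. The part of these markers in the results below was not tested.

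Under vanadium 9 probes of the 3 families were lower than in water and none was higher. They came from 5 microRNAs: osa-miR171f, osa-miR171h, osa-miR171c and osa-miR159a at both the 5'seq and the 3'seq probe, and osa-miR159b at the 3'seq probe. The strongest fall was 3.36-fold, at osa-miR171f 5'seq (with the scanner software's log ratio it was at osa-miR171h 3'seq), and 5 of the 9 fell by 2-fold or more. No Mature probe was among them, but only 1 of the 17 Mature probes could be tested. A probe was tested if it was well above background on all 3 arrays in the vanadium channel or on all 3 in the water channel, counting an array only where every usable spot of the probe was, which 13 of the 51 were. The other 4 that were tested, osa-miR171b 5'seq, osa-miR171g 3'seq, osa-miR171h Mature and osa-miR319b 3'seq, did not pass the test (limma, adjusted p under 0.05 over all probes).

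Of all 29859 probes tested, 21.4% were lower and 29.1% were higher by the same test, and 1.57% were lower by 2-fold or more. Among 129 tested probes of other microRNAs, 25 were lower and 35 higher, of which 2 were lower and 2 higher by 2-fold or more. The median log2 ratio of vanadium over water was -0.76 over the 13 tested members, 0.12 over the other microRNA probes and 0.02 over all tested probes. Whether these shares differ was not tested. The members that could be tested include probes that passed through the water channel alone, osa-miR171c 3'seq and osa-miR171h 3'seq, and a fall is easier to find for such probes.

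In what follows, a signal is the median brightness of a spot as the scanner read it, averaged over both spots, and a log2 ratio is vanadium over water after background correction and normalization. On replicates 1, 2 and 3 the median of the negative controls was 62, 67 and 68 for vanadium and 89, 160 and 154.5 for water. Signals of both channels are not on 1 scale, and water lay higher even in these controls, so only the log2 ratios compare vanadium with water. Each of the 9 probes called lower had a log2 ratio below 0 on all 3 arrays. The 2 spots of a tested member differed by a median of 0.10 on the log2 ratio scale, and by at most 0.37, over 37 pairs of spots. This is spread within an array and does not cover the spread between replicates.

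In the miR171 family, osa-miR171f, whose probe names place it on chromosome 3, fell most with the background correction and normalization used here. With the scanner software's log ratio osa-miR171h lay lower, at -2.10 against -2.04 for 5'seq and -2.39 against -1.87 for 3'seq. The 5'seq probe of osa-miR171f gave signals of 3221.5, 1959 and 2581.5 in water and of 537, 556.5 and 736.5 under vanadium on replicates 1, 2 and 3. The log2 ratios were -1.86, -1.78 and -1.60, with a mean of -1.75 ± 0.09 (SE, n = 3 arrays, limma adjusted p = 2.22e-05). By size, this was number 34 among the 6403 probes called lower on the array. The 3'seq probe of osa-miR171f gave signals of 2450.5, 1392.5 and 1652.3 in water and of 394.3, 523.3 and 528.3 under vanadium. Its log2 ratios were -1.90, -1.34 and -1.38, with a mean of -1.54 ± 0.13 (SE, n = 3 arrays, limma adjusted p = 0.000180). The difference in ratio between its 3'seq and 5'seq probes, 0.21 ± 0.11 (SE, n = 3 arrays), did not pass the test (limma, adjusted p = 0.223).

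osa-miR171h, placed on chromosome 4, also fell at both probes, from signals nearer to the negative controls. The 5'seq probe gave water signals of 422.5, 566 and 531.8 and vanadium signals of 117.5, 215 and 151. The log2 ratios of -1.21, -1.12 and -1.28 varied little between arrays and had a mean of -1.20 ± 0.08 (SE, n = 3 arrays, limma adjusted p = 7.19e-05). The scanner log ratio gave a mean of -2.10. The 3'seq probe gave water signals of 197.8, 314 and 270.3 and vanadium signals of 83.3, 124 and 85.3. These vanadium signals were near the negative controls, and the vanadium channel was well above background on both spots of 1 of 3 arrays. Its log2 ratio of -0.76 ± 0.08 (SE, n = 3 arrays, limma adjusted p = 0.000637) rests on signals where the offset of 50 used in background correction pulls ratios toward 0. With an offset of 0 the mean was -1.16. It was -2.39 in the log ratio of the scanner software, which differs in background correction and normalization as well.

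osa-miR171c, the other member placed on chromosome 4, fell unequally at its 5'seq and 3'seq probes. The 3'seq probe gave water signals of 277.8, 328 and 491.5 and vanadium signals of 97.8, 135 and 174. Its log2 ratios were -0.89, -0.72 and -1.01, with a mean of -0.88 ± 0.09 (SE, n = 3 arrays, limma adjusted p = 0.000437). The mean was -1.74 with the scanner log ratio. The 5'seq probe gave water signals of 502.5, 632 and 770 and vanadium signals of 246.5, 481.3 and 430.5. Its log2 ratios of -0.33, -0.21 and -0.50 had a mean of -0.35 ± 0.09 (SE, n = 3 arrays, limma adjusted p = 0.0182), the smallest of the 9 falls. Leaving out replicate 3 ended the call (-0.27, adjusted p = 0.152), as did a fit without the pairing of channels on arrays (adjusted p = 0.0767), and the mean was -0.66 with the scanner log ratio.

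osa-miR171b, placed on chromosome 8, had a 5'seq probe far above background that did not pass the test. Its signals were 2733.5, 2259.8 and 1879.3 in water and 1791, 2433.8 and 1855.5 under vanadium. The log2 ratios were 0.13, 0.10 and 0.19, with a mean of 0.14 ± 0.08 (SE, n = 3 arrays, limma adjusted p = 0.177), and the mean was -0.02 with the scanner log ratio. The 3'seq probe of osa-miR171b could not be tested.

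osa-miR171g, placed on chromosome 7, differed between replicates. Its 3'seq probe gave log2 ratios of -1.52 and -1.26 on replicates 1 and 3 but 0.64 on replicate 2, where both spots were higher under vanadium (0.57 and 0.71). The mean of -0.71 ± 0.39 (SE, n = 3 arrays) did not pass the test (limma, adjusted p = 0.170), while without replicate 2 it was -1.39 (adjusted p = 0.000894), and with slide as a block it was -0.91 (adjusted p = 0.0295). Water signals were 4322.8, 1170.5 and 2134.5, and vanadium signals 905.3, 1785.5 and 766.5. Divided by the 75th percentile of its channel on each array after background subtraction, the water value was 3.27, 0.770 and 1.26, and the vanadium value 1.00, 1.07 and 0.442. On replicate 2 the water value was thus the lowest of the 3 and the vanadium value the highest, at 1.07 against 1.00 on replicate 1. The 5'seq probe of osa-miR171g could not be tested.

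The Mature probes of osa-miR171g and osa-miR171h had the highest signals of the 51 probes and also had their highest ratio on replicate 2. osa-miR171h Mature gave water signals of 18382, 5698.8 and 10843 and vanadium signals of 11411, 11931 and 7732. Its log2 ratios were -0.13, 0.97 and -0.45, with a mean of 0.13 ± 0.25 (SE, n = 3 arrays, limma adjusted p = 0.686). The sign differed between arrays, and without replicate 2 the mean was -0.29 (adjusted p = 0.101). All 6 spots of osa-miR171g Mature were marked as non-uniform by the scanner software and were left out of the ratios, as were 2 of the 6 spots of osa-miR171h Mature. The signals given above for osa-miR171h Mature include its marked spots. With marked spots kept, osa-miR171g Mature had log2 ratios of -0.19, 0.91 and -0.42 and a mean of 0.10 ± 0.24 (SE, n = 3 arrays, limma adjusted p = 0.749). In the same setting osa-miR171h Mature had log2 ratios of -0.12, 0.97 and -0.43, so both probes had the same sign on each array. Whether both probes bind the same RNA was not tested.

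A ratio on replicate 2 that exceeded both other replicates by at least 1 on the log2 scale was uncommon on the array. It was seen at 33 of 29859 tested probes (0.111%), and 2 of these 33 were osa-miR171g 3'seq and osa-miR171h Mature. No other microRNA probe was among them. For replicate 1 the count was 105 probes (0.352%) and for replicate 3 it was 5 (0.0167%), with no microRNA probe. Replicate 2 lay below both others by as much at 37 probes (0.124%), with no microRNA probe either. These counts were made on the same data that showed the pattern and are no test of it. The 5'seq and 3'seq probes of osa-miR171h did not share the pattern, with replicate 2 at -1.12 for 5'seq and at -0.76 for 3'seq, close to or within the range of the other arrays.

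The remaining Mature probes of miR171 were dim. osa-miR171a Mature was an exception on 1 array: on replicate 1 its spots read 814 and 875.5 in water and 762 and 814 under vanadium, with a log2 ratio of 0.65. On replicates 2 and 3 its mean signals were 197 and 187.3 in water and 94.5 and 94 under vanadium. It was thus well above background on replicate 1 only, in both channels. The Mature probes of osa-miR171b, osa-miR171c, osa-miR171d and osa-miR171f were well above background in water on both spots of replicate 1, with signals of 135.5 to 144.8, and had log2 ratios there of -0.32 to -0.46. On replicates 2 and 3 only 1 of their spots was, of osa-miR171f on replicate 2. Replicate 1 lay on a slide of its own, so replicate and slide cannot be told apart here.

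In the miR159 family, all 6 members are placed on chromosome 1, and osa-miR159a fell most. Its 3'seq probe gave water signals of 1246.3, 1721 and 1791.3 and vanadium signals of 340.5, 626.5 and 559.5. The log2 ratios were -1.17, -1.41 and -1.41, with a mean of -1.33 ± 0.09 (SE, n = 3 arrays, limma adjusted p = 7.18e-05), a 2.51-fold fall. The 5'seq probe gave water signals of 1556.5, 1852 and 2080.8 and vanadium signals of 504.8, 699.3 and 763.3. Its log2 ratios of -0.89, -1.38 and -1.21 had a mean of -1.16 ± 0.11 (SE, n = 3 arrays, limma adjusted p = 0.000321). The difference of 3'seq minus 5'seq was -0.17 ± 0.08 (SE, n = 3 arrays) and did not pass the test (limma, adjusted p = 0.153).

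osa-miR159b 3'seq fell less, with water signals of 254, 445.5 and 439.8 and vanadium signals of 112.5, 198.3 and 169.5. Its log2 ratios were -0.52, -0.86 and -0.88, with a mean of -0.75 ± 0.10 (SE, n = 3 arrays, limma adjusted p = 0.00137). With the scanner log ratio the mean was -1.46. osa-miR159b 5'seq was well above background in water on replicate 1 only and was not tested. Its log2 ratios were -0.26, -0.31 and -0.36, and it was the only further member called lower when no filter was used (limma, adjusted p = 0.0183). No probe of osa-miR159c, osa-miR159d, osa-miR159e or osa-miR159f passed the filter, nor did any of the 6 Mature probes of the family. On replicate 2, 1 spot of osa-miR159c 5'seq read 1385.5 in water and 1223 under vanadium while its other spot read 180 and 85, so the mean of both spots describes neither.

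Of the 6 miR319 probes only osa-miR319b 3'seq, placed on chromosome 1, could be tested. Its water signals were 209.5, 347.5 and 495.5 and its vanadium signals 127.5, 218 and 377.5. The log2 ratios were -0.11, -0.24 and -0.01, with a mean of -0.12 ± 0.08 (SE, n = 3 arrays, limma adjusted p = 0.267). It was called lower with the scanner log ratio (-0.46, adjusted p = 0.0322), which lowered the median of all tested probes to -0.13, so that relative to that median the value was -0.34. osa-miR319a had no probe that could be tested, and its 3'seq probe, well above background in 1 of 2 spots in water on replicate 1 and nowhere else, had log2 ratios of -0.32, -0.25 and -0.14.

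Of the 38 members that were not tested, 37 had a ratio, and 30 were on no array well above background in every spot of either channel. Their mean log2 ratios ranged from -0.31 to 0.23 with a median of 0.01. In the vanadium channel 41, 60 and 64 of their 76 spots lay at or below the 95th percentile of the negative controls on replicates 1, 2 and 3, and in the water channel 25, 46 and 40 did. At such signals a change may not be detectable, so these ratios do not show that the RNAs stayed the same. The 2 with the highest mean signal of the 38 were the Mature probes of osa-miR171g and osa-miR171a described above.

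Kinds of probe differed in how often they passed the filter. Of 17 probes of each kind, 7 of 3'seq, 5 of 5'seq and 1 of Mature were tested, and 5, 4 and 0 of these were lower. Among other microRNAs, 28.1% of 153 3'seq probes, 31.4% of 5'seq and 24.8% of Mature were tested, against 41.2%, 29.4% and 5.88% here. Whether these shares differ was not tested, since members share arrays and are no replicates.

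Differences between kinds of the same microRNA on the same array could be tested 41 times on the whole array and were called 18 times (43.9%). Of 6 such differences in these families 3 were called. osa-miR171c 3'seq was lower than its 5'seq, with differences of -0.56, -0.52 and -0.51 on the 3 arrays and a mean of -0.53 ± 0.06 (SE, n = 3 arrays, limma adjusted p = 0.00881). Its 3'seq probe was tested through the water channel, and with both channels required to be above background this difference could not be computed. In the scanner log ratio it was -1.08. The 3'seq probe of osa-miR171h was also tested through the water channel alone. With both channels required to be above background, its differences from the 5'seq and Mature probes, given below, could not be computed. osa-miR171h 5'seq was lower than its Mature probe, with differences of -1.08, -2.09 and -0.83 and a mean of -1.33 ± 0.27 (SE, n = 3 arrays, limma adjusted p = 0.0244). It no longer passed when replicate 1 was left out (-1.46, adjusted p = 0.131) or when slide was a block (-1.27, adjusted p = 0.115). osa-miR171h 3'seq had a higher ratio than 5'seq by 0.44 ± 0.07 (SE, n = 3 arrays, limma adjusted p = 0.0155), but with the scanner log ratio this difference turned to -0.29 (adjusted p = 0.195), and without replicate 1 it was 0.38 (adjusted p = 0.0617). osa-miR171h 3'seq minus Mature was -0.89 ± 0.30 (SE, n = 3 arrays) and did not pass (limma, adjusted p = 0.0779), but it passed with an offset of 0 (-1.29, adjusted p = 0.0167), with the scanner log ratio (-2.40, adjusted p = 8.46e-08) and without replicate 2 (-0.47, adjusted p = 0.00161).

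Members of a family also differed from each other. The deviation of a probe from the mean of the other tested probes of its kind and family could be tested for 83 microRNA probes and was called for 21 (25.3%). It could be tested for 8 miR171 probes, of which 5 were called, and for none of miR159 or miR319. Among 5'seq probes, osa-miR171b stood above the others by 1.24 ± 0.07 and osa-miR171c by 0.59 ± 0.09, while osa-miR171f stood below by -1.28 ± 0.09 and osa-miR171h by -0.55 ± 0.07 (SE, n = 3 arrays, limma adjusted p of 8.55e-05, 0.00199, 0.000118 and 0.00136). On every array the order of these 4 was osa-miR171b, osa-miR171c, osa-miR171h and osa-miR171f, from the highest ratio to the lowest, while in the means of the scanner log ratio osa-miR171h (-2.10) lay below osa-miR171f (-2.04). These 4 deviations share their probes and are not independent. Without a filter, where dim members enter the mean, they were 0.50 for osa-miR171b, -0.05 for osa-miR171c, -1.62 for osa-miR171f and -1.01 for osa-miR171h. That of osa-miR171c 5'seq did not pass there (limma, adjusted p = 0.759). Among 3'seq probes only osa-miR171f stood apart, by -0.76 ± 0.14 (SE, n = 3 arrays, limma adjusted p = 0.00543). This call was lost with the scanner log ratio (-0.17, adjusted p = 0.627). It was set against osa-miR171g and against osa-miR171c and osa-miR171h, which were tested through the water channel alone. With both channels required to be above background, no 3'seq deviation of miR171 could be computed. The deviations of osa-miR171c, osa-miR171g and osa-miR171h among the 3'seq probes did not pass, at 0.13, 0.35 and 0.29. That of osa-miR171g passed without replicate 1 (0.70, adjusted p = 0.0212) and with the scanner log ratio (1.04, adjusted p = 0.0283). That of osa-miR171h passed upward without replicate 2 (0.57, adjusted p = 0.0201) and with slide as a block (0.41, adjusted p = 0.00401), but downward with the scanner log ratio (-0.86, adjusted p = 0.0105). That of osa-miR171c passed downward without a filter (-0.45, adjusted p = 0.00460).

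Averaged over its 4 tested 5'seq probes, miR171 had log2 ratios of -0.82, -0.75 and -0.80, with a mean of -0.79 ± 0.04 (SD, n = 3 arrays). For its 4 3'seq probes the values were -1.24, -0.54 and -1.13, with a mean of -0.97 ± 0.37 (SD, n = 3 arrays), and osa-miR171g was the only one of the 4 above 0 on replicate 2. For the 2 tested 3'seq probes of miR159 they were -0.84, -1.14 and -1.15, with a mean of -1.04 ± 0.17 (SD, n = 3 arrays). These means cover the tested members, of which osa-miR171c 3'seq and osa-miR171h 3'seq were tested through the water channel alone. For such probes a fall is easier to find. Without a filter, so over all members, the means were -0.31 for miR171 5'seq, -0.47 for miR171 3'seq and -0.35 for miR159 3'seq. The exact sign-flip permutation test over arrays (2-sided) gave p = 0.25 for each, the smallest p that 3 arrays allow, and could not have passed. The even mean of the miR171 5'seq probes joins members that differ widely, from osa-miR171b at 0.14 to osa-miR171f at -1.75.

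A list of 12 loci was written from general knowledge as mRNA targets of these families. The files do not pair locus numbers with gene names, so these roles were not checked. Of the 11 loci on the array 6 could be tested, and 2 were lower, 0 higher and 4 not called, with a median log2 ratio of -0.12 (limma, adjusted p under 0.05). Of all 21094 loci tested, 21.3% were lower and 29.8% higher. For miR171, 1 of 3 tested loci was lower, Os02g0663100, with log2 ratios of -0.58, -0.19 and -0.30 and a mean of -0.36 ± 0.10 (SE, n = 3 arrays, limma adjusted p = 0.0242). For miR159, 1 of 2 was lower, Os01g0812000, with log2 ratios of -0.09, -0.62 and -0.40 and a mean of -0.37 ± 0.11 (SE, n = 3 arrays, limma adjusted p = 0.0358). With the mean of its probes in place of the brightest one, this locus was at -0.21 and was not called (adjusted p = 0.0938). The 1 tested locus listed for miR319 was not called, at 0.04. Neither fall was called without replicate 3 (adjusted p = 0.0615 and 0.103) or when channels were fitted without pairing (adjusted p = 0.275 and 0.127). Os02g0663100 was also not called without replicate 1 (-0.25, adjusted p = 0.0816), nor Os01g0812000 without replicate 2 (-0.24, adjusted p = 0.146). Without replicate 2 the other locus listed for miR159, Os06g0605600, was called higher (0.39, adjusted p = 0.0321), against 0.21 with all 3 arrays (adjusted p = 0.211). A listed locus outside these 6 was called higher without replicate 1, and 1 was with marked spots kept.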

How the data were processed

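Roots of 3 replicates were measured on 3 Agilent 2-colour arrays. Per the file headers, Agilent Feature Extraction (version 10.7.1.1) wrote the deposited files. They hold median spot and background intensity without normalization and, as the authors deposited it, a log10 ratio of processed intensity. The value table deposited by the authors holds log2 ratios. They match log2 of the ratio of Cy5 to Cy3 processed signals at 100% of 41882 single-spot probes (tolerance 0.001). It is not centred (column medians -0.05, -0.19 and -0.21).

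Background was corrected by normexp (offset 50), followed by loess within arrays (limma 3.58.1, R 4.3.3). Spots marked as outliers were left out, except from the signals given (306 to 1090 of 45151 per array), none was saturated, and the 2 spots of a probe were averaged. Log2 ratios were tested against 0 with lmFit and eBayes (2-sided), whose SE uses a variance drawn toward that of all probes, adjusted by Benjamini-Hochberg over all probes, with a threshold of 0.05. Differences between kinds and deviations from a family (at least 2 other probes) were tested likewise over all microRNAs. For loci, the brightest tested probe was used. The pairing of channels comes from the shared array. The steps were checked on simulated data. With 3 arrays, their number limits the precision. Members, lists and tests were chosen with earlier results of these data known. Tested members were all named, untested ones given by counts and ranges.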

Additional observations from a re-analysis of the deposited data

How the results depend on the processing

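Alternatives that retested member probes called 7 to 10 of them lower and 0 higher, not always the same ones: osa-miR171c 5'seq dropped out without replicate 3 and without pairing, osa-miR171g 3'seq entered when slide was a block or replicate 2 was left out, and osa-miR319b 3'seq entered with the scanner log ratio and the authors' table. The 7 came from requiring both channels above background, which tested 11 members, and the range was 8 to 10 when each replicate was left out. When channels were fitted without pairing (no replicate block), 8 were lower. Differences between kinds called numbered 1 with the authors' table (which holds 50 of the 51 members as used here), 1 with both channels above background, 14 without a filter, and 1 to 4 without each replicate. Deviations from the family numbered 24 without a filter. Listed target loci called numbered 0 with no replicate block, 1 with the mean of the probes of a locus, and 0 to 2 without each replicate. With marked spots kept 3 were called, 2 of them lower, and without replicate 1, 2 were called, 1 of them lower. In each of these settings the other call was higher, at a listed locus not tested in the results above.

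Signs turned as follows. With the scanner log ratio, and equally with the authors' table, osa-miR171b 5'seq was at -0.0192, osa-miR171h 3'seq minus 5'seq at -0.29, and the 3'seq deviations of osa-miR171c and osa-miR171h at -0.00628 and -0.865, and the target locus Os01g0213800 at -0.0199. With an offset of 0 the osa-miR171c deviation was -0.0223, and Os01g0213800 was at -0.0271 with median centring and -0.00736 with slide as a block. Without a filter the deviations were -0.45 and -0.0463 for osa-miR171c 3'seq and 5'seq, -0.27 for osa-miR171g 3'seq and -0.32 for osa-miR171h 3'seq, since dim members then enter the family mean, and the miR171 Mature mean was -0.0148. Leaving out each replicate gave -0.29 to 0.42 for osa-miR171h Mature and the miR171 Mature mean, -0.27 to 0.70 for the osa-miR171g deviation, and -0.0388 to 0.31 for that of osa-miR171c 3'seq and -0.0362 to 0.135 for Os01g0213800. The cause was not tested for the others.

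Over all probes 57.6% of calls were higher, against 40.8% with the scanner log ratio (6732 higher, 9752 lower), which set the median ratio at -0.13. Fitting without pairing called 4639 higher and 2129 lower. A filter that counted any spot above background was chosen after the data were seen and also gave 9 lower members. Signals near background kept 37 of the 51 probes from being tested, and marked spots osa-miR171g Mature. The tested probes osa-miR171c 3'seq and osa-miR171h 3'seq also had vanadium signals near background on at least 1 array.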
